A study of Rattus norvegicus with 6 samples.

Results

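The genes described here are 49 genes of mitosis and the spindle checkpoint, chosen by name and grouped by function, and 48 of them have a row in the table of 16209 genes. The member without a row is Ccnb2, which encodes cyclin B2. All 48 reached the filter on low values used here, a normalized read count of at least 1 in 3 or more of the 6 libraries, and 14639 genes of the table did so in all. In 44 of the 48 all 3 ginkgetin values were 1 or more, and in 46 all 3 vehicle values were. Liver RNA was sequenced from fibrotic rats: 3 samples come from rats on vehicle, and 3 from rats dosed at 10 mg/kg/day with ginkgetin, a biflavone found in ginkgo. Both groups are fibrotic, and no healthy liver is among the samples. The strain, sex and age of the animals, the way fibrosis was induced and the length of treatment are not stated in the labels. The comparison asks how the treatment changed gene expression in the fibrotic liver. The vehicle columns of the table are headed TAA, a name that the labels do not use, and they were taken as vehicle because no other group remains.

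Cells divide their copied chromosomes in mitosis. Cyclin-dependent kinase 1 with cyclins A and B starts it, kinesin motors and microtubule-binding proteins build the spindle, and kinetochores fasten each chromosome to spindle fibres. Until every kinetochore is attached, the spindle checkpoint holds back the anaphase-promoting complex, a ubiquitin ligase whose release lets the sister chromatids separate and the cell divide. Most hepatocytes of a healthy adult liver are at rest, while injury brings hepatocytes, bile duct cells, stellate cells and immune cells into the cell cycle. Many mitosis genes are switched on together late in the cycle, through the cell cycle homology region, a promoter element read by the MuvB complexes, and through CCAAT boxes bound by NF-Y.

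Promoter sequences are shown to describe the members, which were chosen by name as mitosis genes. A link between these sequences and the values in the libraries was not tested. RefSeq windows of the GRCr8 rat assembly, from 250 bases before to 50 after a transcription start, were found by symbol for 42 of the 49 genes. Foxm1, Ccna2, Aurkb, Pbk, Ube2c, Tpx2 and Racgap1 had none. The following words were searched on both strands: TTTGAA, the core of the cell cycle homology region, TTTAAA, a variant of it, and CCAAT. A match is a description of the letters and not a bound site. TTTGAA stood in the windows of 29 of the 42 genes (69%), against 19.4% of 27457 genes with a window and 13.3% of the 10883 of these that were tested for expression. CCAAT stood in 29 (69%), against 39.6% and 39%, and at least 2 copies of it in 20 (47.6%), against 12.2% and 13.7%. TTTAAA stood in 14 (33.3%), against 14.6% and 9.88%. Both TTTGAA and CCAAT were present in 23 of the 42 (54.8%), against 7.96% and 5.54%.

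The 120 bases before the start held a CCAAT together with a TTTGAA or TTTAAA in 20 tested members. Of these, the one with the smallest p in each functional class is printed, 9 in all, 5′ to 3′ in the direction of transcription, with the searched words in capitals. ATTGG and TTCAAA are the same words read on the other strand, and in TTTGAATTGG the last base of one word is the first of the next.
Mki67 (chr1:199952594-199952713, minus strand): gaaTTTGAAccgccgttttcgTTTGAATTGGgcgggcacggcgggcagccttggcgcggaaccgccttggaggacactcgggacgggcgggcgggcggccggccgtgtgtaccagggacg
Cdk1 (chr20:19265173-19265292, plus strand): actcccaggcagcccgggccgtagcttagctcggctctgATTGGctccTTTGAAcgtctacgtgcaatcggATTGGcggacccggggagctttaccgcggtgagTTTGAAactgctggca
Plk1 (chr1:186147538-186147657, plus strand): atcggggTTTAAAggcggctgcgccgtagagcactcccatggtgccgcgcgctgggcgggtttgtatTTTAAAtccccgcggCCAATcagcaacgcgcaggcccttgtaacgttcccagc
Cdc20 (chr5:137255800-137255919, minus strand): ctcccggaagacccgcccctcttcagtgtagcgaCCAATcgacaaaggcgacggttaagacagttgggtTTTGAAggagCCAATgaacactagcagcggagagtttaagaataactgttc
Cdca8 (chr5:142483200-142483319, minus strand): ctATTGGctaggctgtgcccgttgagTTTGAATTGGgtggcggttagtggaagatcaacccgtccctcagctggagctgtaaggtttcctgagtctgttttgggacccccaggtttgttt
Spc25 (chr3:74396719-74396838, minus strand): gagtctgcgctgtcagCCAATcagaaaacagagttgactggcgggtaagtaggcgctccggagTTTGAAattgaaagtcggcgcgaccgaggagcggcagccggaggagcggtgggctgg
Kif11 (chr1:244536747-244536866, plus strand): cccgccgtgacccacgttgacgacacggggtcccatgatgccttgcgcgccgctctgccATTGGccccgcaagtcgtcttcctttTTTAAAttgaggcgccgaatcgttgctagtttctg
Ncapg (chr14:69645446-69645565, minus strand): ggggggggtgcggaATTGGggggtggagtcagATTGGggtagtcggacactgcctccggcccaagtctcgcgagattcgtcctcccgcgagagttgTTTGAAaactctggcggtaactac
Nusap1 (chr3:127057175-127057294, plus strand): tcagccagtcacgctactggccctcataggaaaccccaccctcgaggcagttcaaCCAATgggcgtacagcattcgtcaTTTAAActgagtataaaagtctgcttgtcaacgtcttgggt
In the Cdk1 stretch ATTGG and TTTGAA begin 81 and 72 bases before the start, and a second pair begins at 49 and 16. Cdc20 carries TTTGAA between 2 CCAAT words. The printed stretches of Plk1, Kif11 and Nusap1 hold TTTAAA and no TTTGAA. Beyond these stretches, the windows of Plk1 and Nusap1 also hold a TTTGAA just after the start, at bases 7 and 10. Windows were found for 41 genes of 4 lists of cell division or motor genes taken as needed outside mitosis. These lists were the anaphase-promoting complex core, cohesin, checkpoint partners and interphase kinesins. Their windows held TTTGAA in 5 cases (12.2%), and those of 22 DNA replication genes in 2 (9.09%). CCAAT stood in 19 of the 41 (46.3%) and in 14 of the 22 (63.6%), where 9 (40.9%) had at least 2 copies. Windows of 48 further periodic mitotic genes held TTTGAA in 29 cases (60.4%), CCAAT in 30 (62.5%) and both in 20 (41.7%).

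All 48 members had a lower mean in the ginkgetin livers, where 51.4% of the genes tested did. With equal library totals all 48 were lower too, beside 78.6% of all genes. Their median log2 fold change was -2.24, and that of all genes tested was -0.02. Values are normalized read counts, and a fold change is the difference of mean log2(value + 1), ginkgetin minus vehicle, a scale that shrinks differences at low read numbers. The fold change was -2 or below in 34 members, between -2 and -1 in 10 and above -1 in 4. No member passed a Benjamini-Hochberg threshold of 0.05 over all genes in limma, where 2 of 14639 genes passed (0.0137%), 1 of them lower (0.00683%). At an unadjusted p of 0.05, 40 of 48 members were lower and 0 higher, beside 13.2% and 7% of all genes. In 25 members every ginkgetin value lay below every vehicle value, beside 16.1% of all genes. The members vary together and were chosen with results of these data known, so these counts describe them and are not independent observations.

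Replicates of a group differed widely. The labels do not say that they are separate animals, so the p-values below rest on sample-to-sample spread, which may be technical. Vehicle, ginkgetin and treated livers stand in the text for the libraries of a group, not for a known number of animals. The 6 libraries held 13372367 to 14933853 reads. The members' reads summed to 1922, 7246 and 16433 in vehicle replicates 1 to 3 and to 971, 816 and 1771 in ginkgetin replicates 1 to 3. As normalized reads these sums were 2280, 6026 and 10087 with vehicle and 1074, 944 and 2191 with ginkgetin. Normalized reads of all genes totalled 1.59e+07, 1.18e+07 and 8.27e+06 in vehicle replicates 1 to 3. With ginkgetin these totals were 1.63e+07 to 1.70e+07. Vehicle replicate 1 was the lowest vehicle library in 46 of 48 members, and vehicle replicate 3 the highest in 45, with a median ratio between them of 5.09 over the 46 members with reads in both (range 0.776 to 28.5). Ginkgetin replicate 3 was the highest ginkgetin library in 40 members. Averaged over the 48 genes in log2 units centred on each gene's mean over the 6 libraries, vehicle replicates 1 to 3 lay at -0.24, 1.40 and 2.19 and ginkgetin replicates at -1.62, -1.48 and -0.25. Vehicle replicate 1 and ginkgetin replicate 3 therefore stood at almost the same level, and vehicle replicate 1 was the higher of the pair in 27 of 48 members. The group means were 1.12 ± 1.24 (SD, n = 3) and -1.12 ± 0.75 (SD, n = 3). Vehicle replicates 2 and 3 both lay above every ginkgetin library in 47 members, Cks2 being the exception. Without vehicle replicate 1, 25 members passed the adjusted threshold in limma as lower (background 3.04%) at a median of -2.98. With any other library left out 0 passed, and the median was -1.85 without vehicle replicate 3. At an unadjusted p of 0.05, 25 members were lower without ginkgetin replicate 1 and 26 without ginkgetin replicate 2. Of all 14639 genes, 2808 and 1918 reached that p in either direction in these settings. Groups did not overlap in 47 members without vehicle replicate 1 (background 25.2%) and in 41 without ginkgetin replicate 3 (18.9%).

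**Figure D1:**
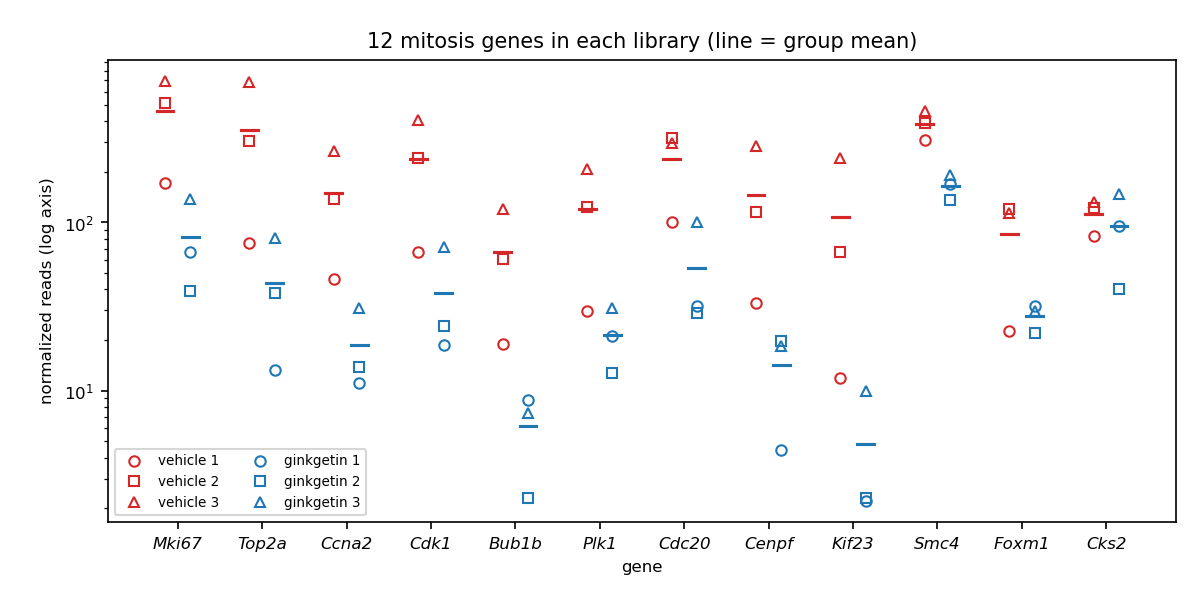
Normalized read counts (log axis) of 12 members in each of the 6 libraries, vehicle in red and ginkgetin in blue, with a marker shape per replicate and a line at each group mean. Vehicle 1 (red circles) lies near ginkgetin 3 (blue triangles) for most genes. Smc4 has the tightest groups, and the groups of Top2a, Cdk1, Plk1, Foxm1 and Cks2 overlap.

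Mki67 and Top2a are the usual markers of cells in cycle. Mki67, whose protein Ki-67 coats mitotic chromosomes, had 172, 515 and 693 normalized reads in vehicle replicates 1 to 3 and 66.3, 39.3 and 139 in ginkgetin replicates 1 to 3 (log2 fold change -2.45, SE 0.607, adjusted p = 0.109, limma). Its groups did not overlap, although vehicle 1 stood closer to ginkgetin 3 than to the other vehicle libraries. Top2a, the topoisomerase that untangles sister chromatids, had 75.9, 307 and 680.1 in the vehicle livers against 13.3, 38.2 and 80.4 in the treated livers (log2 fold change -2.82, SE 0.869, adjusted p = 0.148). Here ginkgetin 3 lay just above vehicle 1. Without vehicle 1 both passed over all genes, at -3.05 (adjusted p = 0.0287) and -3.68 (0.0387, limma).

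The transcription factors Foxm1 and Mybl2 drive the expression of late cell cycle genes. Foxm1 had 22.5, 121 and 114 normalized reads in the vehicle livers against 32.1, 22.0 and 29.7 in the treated livers (log2 fold change -1.27, SE 0.660, adjusted p = 0.311). The 3 ginkgetin libraries were close together, vehicle 1 lay inside their range, and vehicle 2 and 3 were several times higher. Mybl2, the MuvB partner B-Myb, had 16.6, 21.6 and 114 in the vehicle livers against 2.21, 12.7 and 8.66 in the treated livers (log2 fold change -2.25, SE 0.881, adjusted p = 0.211). Its groups did not overlap, with most of the vehicle reads in replicate 3 and a fold change of -1.41 without that library.

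Among cyclins, Cdk1 and its partners, 5 of 6 tested members were lower at an unadjusted p of 0.05, with a median of -2.42, and only Ccna2 had groups without overlap. Ccna2, which encodes cyclin A2, had 46.3, 138 and 267 normalized reads in the vehicle livers against 11.1, 13.9 and 30.9 in the treated livers (log2 fold change -2.75, SE 0.689, adjusted p = 0.111). Cdk1, the kinase that starts mitosis, had 66.4, 240.4 and 409 in the vehicle livers against 18.8, 24.3 and 71.7 in the treated livers (log2 fold change -2.51, SE 0.739, adjusted p = 0.139). Its vehicle 1 value was just under that of ginkgetin 3, and the remaining vehicle libraries were far above every ginkgetin library. Cdca3, which promotes mitotic entry by helping to remove the inhibitory kinase Wee1, had 28.5, 139.7 and 313 in the vehicle livers against 9.95, 8.10 and 33.4 in the treated livers (log2 fold change -2.86, SE 0.898, adjusted p = 0.155). Ccnb1, which encodes cyclin B1, had a fold change close to that of Cdk1 (-2.34, SE 0.893), and Cdc25c, a phosphatase that activates Cdk1, was lower by a smaller amount (-1.25, SE 0.531). Cks2, the small subunit of cyclin-dependent kinases, stood out from this class with 83.0, 122 and 133 normalized reads in the vehicle livers against 95.1, 40.5 and 148 in the treated livers (log2 fold change -0.41, SE 0.492, adjusted p = 0.659). Ginkgetin 3 was its highest library and ginkgetin 2 its lowest, so the spread within ginkgetin exceeded the difference between groups, and the fold change was 0.10 without ginkgetin 2.

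The 8 mitotic kinases had a median of -2.10, and 5 were lower at an unadjusted p of 0.05. Bub1b, which encodes the checkpoint kinase BubR1, had 19.0, 60.7 and 120.3 normalized reads in the vehicle livers against 8.84, 2.31 and 7.42 in the treated livers (log2 fold change -3.03, SE 0.783, adjusted p = 0.115). Ttk, which encodes Mps1, the kinase that switches the checkpoint on, had 20.2, 72.4 and 125 in the vehicle livers against 4.42, 5.78 and 12.4 in the treated livers (log2 fold change -2.88, SE 0.746, adjusted p = 0.115). Neither gene's groups overlapped, and both had their lowest vehicle value in replicate 1. Plk1, the polo-like kinase that acts from mitotic entry to cytokinesis, had 29.7, 123 and 208 in the vehicle livers against 21.0, 12.7 and 30.9 in the treated livers (log2 fold change -2.12, SE 0.724, adjusted p = 0.174), with vehicle 1 and ginkgetin 3 near the same value. Bub1, which recruits checkpoint proteins to kinetochores, lay at -2.08 (SE 0.718), and Aurkb, the kinase that corrects faulty attachments, at -2.45 (SE 0.857). Aurka, which works at the spindle poles, had another pattern over the libraries, with 219, 196 and 227 normalized reads in the vehicle livers against 121, 67.1 and 191 in the treated livers (log2 fold change -0.88, SE 0.385, adjusted p = 0.247). Its 3 vehicle libraries were within a narrow range and vehicle 1 was close to vehicle 3, with no overlap between groups. The kinases Melk and Pbk had the widest spread of the class. Melk, with 139 reads over the vehicle and 11 over the ginkgetin libraries, had 0, 25.0 and 66.9 normalized reads in the vehicle livers against 0, 9.26 and 3.71 in the treated livers (log2 fold change -1.73, SE 1.57, adjusted p = 0.548), being at 0 in 1 library of each group. Pbk lay at -1.62 (SE 1.21).

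All 5 genes of the checkpoint's target and of anaphase were lower at an unadjusted p of 0.05, at a median of -2.49, and the groups of 4 did not overlap. Cdc20, the activator of the anaphase-promoting complex that the checkpoint restrains, had 101, 319 and 296 normalized reads in the vehicle livers against 32.1, 28.9 and 100.2 in the treated livers (log2 fold change -2.20, SE 0.610, adjusted p = 0.127). Vehicle 1 and ginkgetin 3 touched, at 100.8 and 100.2. Espl1, which encodes separase, the protease that cuts cohesin at anaphase, had 26.1, 59.0 and 152 in the vehicle livers against 11.1, 2.31 and 16.1 in the treated livers (log2 fold change -2.84, SE 0.834, adjusted p = 0.139). Ube2c, the ubiquitin-conjugating enzyme of the complex, had 51.0, 135 and 215 in the vehicle livers against 17.7, 8.10 and 49.5 in the treated livers (log2 fold change -2.49, SE 0.744, adjusted p = 0.141). For Espl1 and Ube2c too, vehicle 1 was the value nearest to the ginkgetin range. Pttg1, which encodes securin, the inhibitor of separase, lay at -2.87 (SE 1.05), and Mad2l1, the checkpoint protein that binds Cdc20, at -1.80 (SE 0.674).

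The chromosomal passenger complex brings Aurora B to centromeres and the midzone. Cdca8, its subunit borealin, had 75.9, 164 and 309 normalized reads in the vehicle livers against 27.6, 30.1 and 49.5 in the treated livers (log2 fold change -2.15, SE 0.538, adjusted p = 0.111), without overlap. Birc5, its subunit survivin, had 55.8, 146 and 266 in the vehicle livers against 22.1, 17.4 and 69.3 in the treated livers (log2 fold change -2.08, SE 0.697, adjusted p = 0.171), and ginkgetin 3 exceeded vehicle 1.

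All 4 kinetochore genes were lower at an unadjusted p of 0.05, with the largest class median, -2.88. Cenpf, a large protein of the outer kinetochore, had 33.2, 116 and 285 normalized reads in the vehicle livers against 4.42, 19.7 and 18.6 in the treated livers (log2 fold change -3.01, SE 0.852, adjusted p = 0.130). Nuf2 and Ndc80, partners in the complex that grips microtubules, had 17.8, 69.9 and 205 and 24.9, 74.9 and 141 with vehicle, in that order of genes. With ginkgetin Nuf2 had 3.32, 10.4 and 17.3 (log2 fold change -2.75, SE 0.925, adjusted p = 0.171) and Ndc80 had 12.2, 11.6 and 24.7 (log2 fold change -2.01, SE 0.678, adjusted p = 0.172). The groups of these 3 genes did not overlap, Nuf2 and Ndc80 having vehicle 1 and ginkgetin 3 almost level. Spc25, another subunit of the same complex, had 0 reads in ginkgetin 1 but slightly more normalized reads in ginkgetin 3 than in vehicle 1 (-3.25, SE 1.16).

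Kinesins were the class with the most members without overlap, 6 of 7, and all 7 were lower at an unadjusted p of 0.05 (median -2.74). Kif18b, which shortens astral microtubules, had 19.0, 59.9 and 95.1 normalized reads in the vehicle livers against 0, 5.78 and 7.42 in the treated livers (log2 fold change -3.67, SE 0.969, adjusted p = 0.118). Kif15, a motor that helps keep the spindle bipolar, had 21.4, 49.1 and 158 in the vehicle livers against 7.74, 4.63 and 11.1 in the treated livers (log2 fold change -2.74, SE 0.758, adjusted p = 0.127). Kif2c, the depolymerase MCAK, had 30.8, 107 and 132 in the vehicle livers against 14.4, 12.7 and 24.7 in the treated livers (log2 fold change -2.13, SE 0.620, adjusted p = 0.137). In each of these 3 genes the lowest vehicle library, replicate 1, was above the highest ginkgetin library. Kif23, the centralspindlin motor, lay at -3.61 (SE 1.06), from 11.9 to 243 normalized reads within vehicle. Cenpe, which carries chromosomes to the spindle equator, lay at -3.07 (SE 0.944), and Kif11, the motor that pushes the poles apart, at -2.07 (SE 0.606). The smallest difference was that of Kif20a, a motor of the midzone and cytokinesis (-1.25, SE 0.465), and its groups overlapped.

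Condensin, the ring that compacts mitotic chromosomes, had its subunits at different distances. Smc4, one of its 2 ATPase arms, had 311, 392 and 457 normalized reads in the vehicle livers against 170.3, 135 and 192 in the treated livers (log2 fold change -1.21, SE 0.253, adjusted p = 0.0910). It had the smallest adjusted p and the smallest SE of the 48 members, with a clear gap between groups and values from -1.36 to -1.07 with any 1 library left out. Smc2, the other arm, lay at -0.89 (SE 0.505) with groups that overlapped. Both arms also serve condensin II. Ncaph, the condensin I subunit that closes the ring, had 24.9, 54.9 and 152 in the vehicle livers against 15.5, 1.16 and 9.90 in the treated livers (log2 fold change -3.05, SE 0.929, adjusted p = 0.147), without overlap. Ncapg, another condensin I subunit, had 24.9, 48.2 and 63.2 in the vehicle livers against 5.53, 33.6 and 11.1 in the treated livers (log2 fold change -1.63, SE 0.704, adjusted p = 0.245), and here ginkgetin 2 was above vehicle 1.

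The spindle assembly genes were lower at an unadjusted p of 0.05 in 5 of 5 (median -2.23), but only Nusap1 had groups without overlap. Nusap1, a microtubule-bundling protein, had 38.0, 114 and 195 normalized reads in the vehicle livers against 14.4, 19.7 and 27.2 in the treated livers (log2 fold change -2.20, SE 0.624, adjusted p = 0.130). Prc1, which crosslinks the midzone, had 45.1, 188 and 367 in the vehicle livers against 13.3, 10.4 and 47.0 in the treated livers (log2 fold change -2.89, SE 0.837, adjusted p = 0.137). Dlgap5, which stabilises kinetochore fibres, had 13.05, 85.7 and 115 in the vehicle livers against 6.63, 2.31 and 23.5 in the treated livers (log2 fold change -2.61, SE 0.994, adjusted p = 0.203). In Prc1 and Dlgap5 the overlap came from ginkgetin 3 lying above vehicle 1. Tpx2, the activator of Aurora A, lay at -1.74 (SE 0.685), and Hmmr, a spindle pole protein and hyaluronan receptor, at -2.23 (SE 0.916).

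The 3 cytokinesis genes had a median of -1.69. Ect2, the exchange factor that activates RhoA for the cleavage furrow, had 30.8, 93.98 and 153 normalized reads in the vehicle livers against 2.21, 11.6 and 27.2 in the treated livers (log2 fold change -2.89, SE 0.895, adjusted p = 0.150). Racgap1, the partner of Kif23 in centralspindlin, had 7.12, 12.5 and 5.52 in the vehicle livers against 0, 3.47 and 3.71 in the treated livers (log2 fold change -1.69, SE 0.799, adjusted p = 0.273), without overlap but on 30 and 6 reads per group. Its lowest vehicle library was replicate 3. Anln, the furrow scaffold anillin, had 0, 10.8 and 12.3 in the vehicle livers against 2.21, 2.31 and 4.95 in the treated livers (log2 fold change -0.44, SE 1.05, adjusted p = 0.833), on 33 and 8 reads. Its groups overlapped, with 0 reads in vehicle 1.

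**Figure D2:**
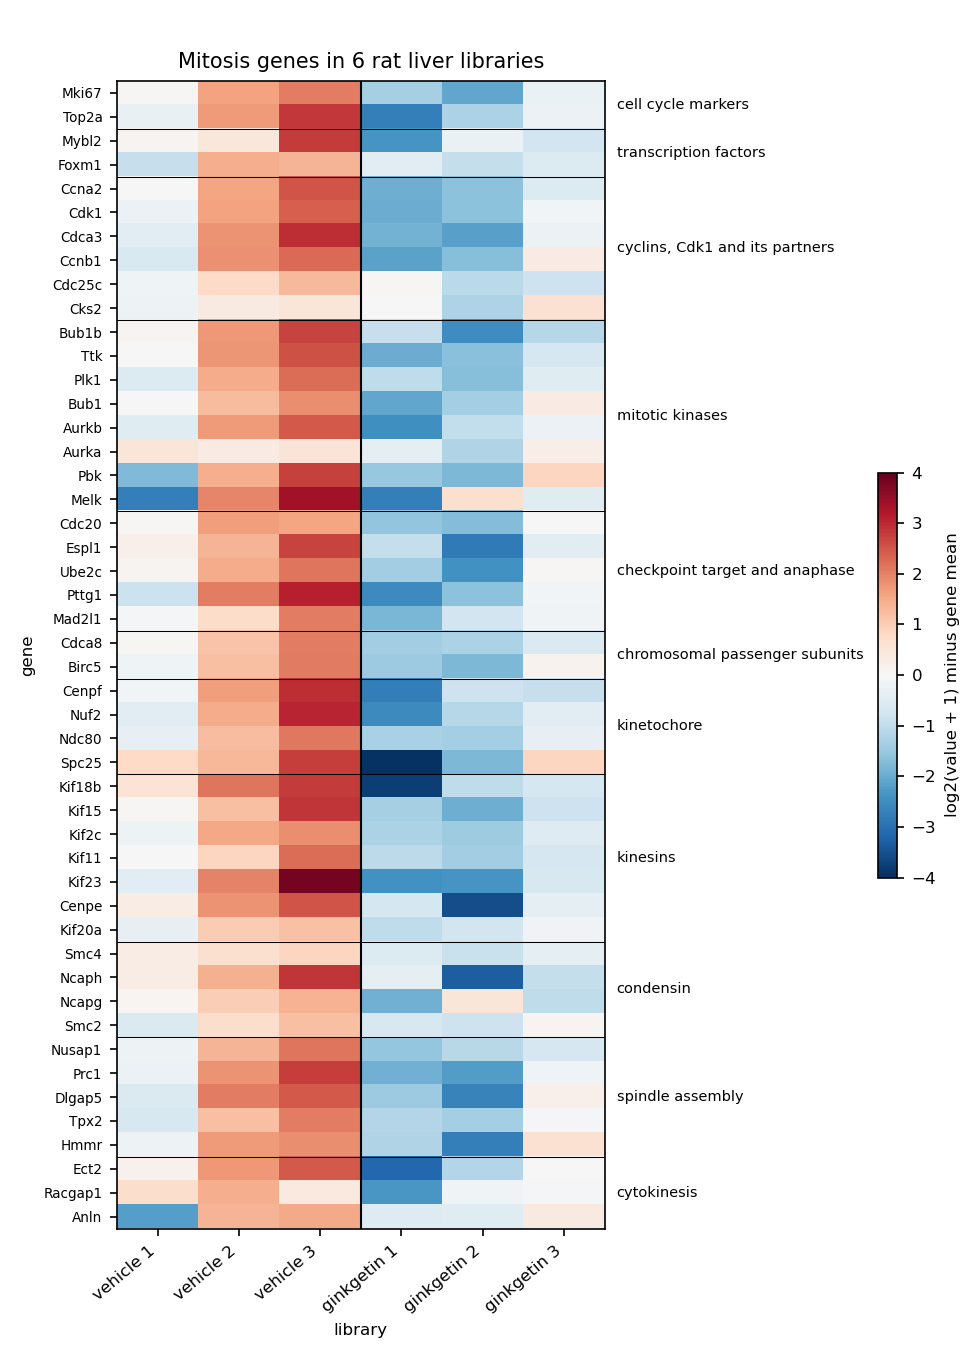
Colour shows log2(value + 1) minus each gene's mean over the 6 libraries, for the 48 members in rows, grouped by function and ordered by p within a class, with vehicle libraries left of the line and ginkgetin libraries right of it. Vehicle 2 and 3 are red in nearly every row, ginkgetin 1 and 2 blue, and vehicle 1 and ginkgetin 3 pale.

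**Figure D3:**
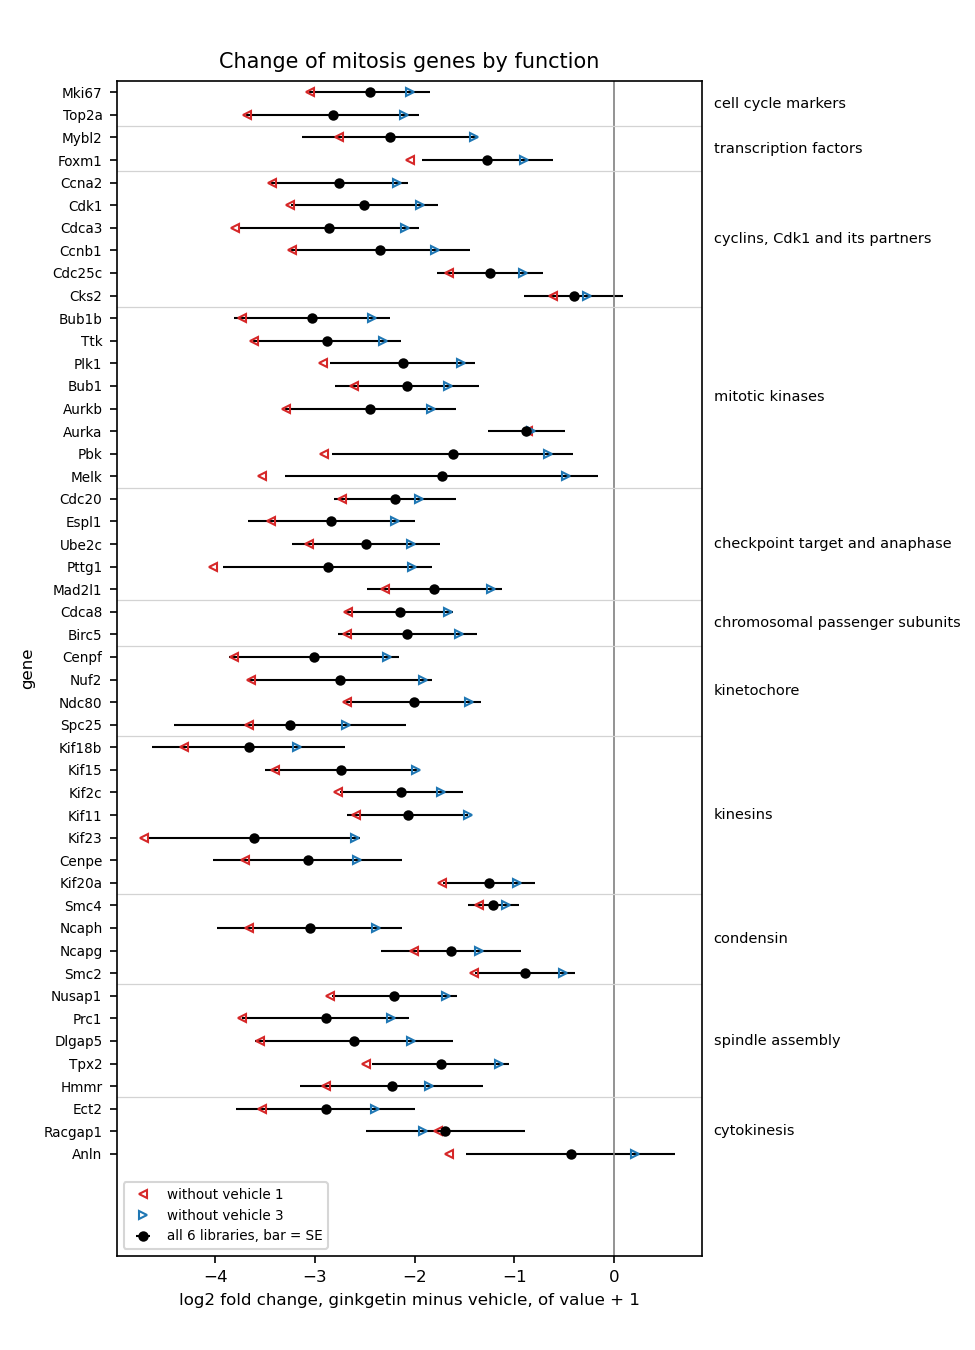
Points give the log2 fold change (ginkgetin minus vehicle) of each of the 48 members with its standard error from limma, and open triangles give it without vehicle 1 (left-pointing) and without vehicle 3 (right-pointing). All points lie below 0, those of Kif18b and Kif23 farthest, and leaving out vehicle 1 moves most genes further from 0 while leaving out vehicle 3 moves them nearer.

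The tests treated the spread in different ways. Run on the recovered reads, of which 99.67% of rows came out whole, edgeR's quasi-likelihood test called 0 members and 0 genes in all as lower, with 38 members at an unadjusted p of 0.05 (background 14.5%). DESeq2 called 32 of 48 members lower after Benjamini-Hochberg adjustment, where it called 7.51% of all genes lower. Of these 32, 23 were also among the 25 that passed in limma without vehicle 1. With limma weights per library, which set vehicle 2 highest (3.58) and vehicle 3 lowest (0.258), 29 members passed (background 11.2%). DESeq2 called 6 of 7 kinesins, 4 of 5 genes each in the anaphase and spindle assembly classes and 4 of 8 kinases.

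Other genes of the pathway were taken from lists drawn up by name, and differences between lists were not tested. Of 53 further periodic mitotic genes tested, 51 had lower means (median -1.82) and 27 were lower at an unadjusted p of 0.05. The smallest p values belonged to Kif22, a chromosome-arm kinesin, with 83.0, 193 and 336 normalized reads in the vehicle livers against 25.4, 9.26 and 39.6 in the treated livers (log2 fold change -2.99, SE 0.663, adjusted p = 0.0953), and to Iqgap3, a scaffold protein (log2 fold change -3.21, SE 0.736, adjusted p = 0.101). The 2 with higher means were Cks1b (0.05), the sister subunit of Cks2, and Hjurp (0.07), a centromere chaperone, and both were lower with equal library totals (-0.47 and -0.44). DNA replication genes were lower in 25 of 27 (median -0.87, 8 at an unadjusted p of 0.05), with Tk1, thymidine kinase, at -1.82 (SE 0.433) and Mcm3, a helicase subunit, at -2.39 (SE 0.618). No gene of either list passed over all genes in limma.

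Lists of parts of the same machines that were taken as present throughout the cycle had medians between -0.55 and 0.37. The 15 core subunits of the anaphase-promoting complex had a median of -0.18, with 11 lower and 1 at an unadjusted p of 0.05. Anapc1, the scaffold subunit, lay at -0.75 (SE 0.316) and Anapc4 at -0.55 (SE 0.246). Of 11 checkpoint partners that were listed as expressed throughout the cycle, 7 were lower (median -0.15). Kntc1, a subunit of the kinetochore complex that recruits dynein, was the lowest of them (-2.36, SE 0.804). It had 16.6, 35.8 and 91.5 normalized reads in the vehicle livers against 2.21, 10.4 and 11.1 in the treated livers, like many members. Mad2l1bp, which ends checkpoint signalling, was higher (0.67, SE 0.247). Cohesin genes, which hold sister chromatids together, were higher in 8 of 9 (median 0.37, 0 at an unadjusted p of 0.05), with Smc3 lower (-0.17, and 0.02 without vehicle 3) and Stag2 (0.43) and Pds5a (0.51) with the smallest p. With equal library totals, which shift the median of all genes to -0.53, all 9 were lower at a median of -0.15, Stag2 at -0.09 and Pds5a at -0.01, so the direction of this list depends on the scaling. The 14 motor genes of interphase transport had a median of 0.05, with 7 lower and 7 higher, and 12 were lower with equal library totals. Kif16b was at 0.79 (SE 0.263) and Kif3a at -1.003 (SE 0.471). The 3 subunits particular to condensin II had a median of -0.55, with Ncapg2 at -1.08 and Ncapd3 at -0.55.

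Subunits of MuvB and DREAM, the complexes that read the cell cycle homology region, had a median of 0.33 with 8 of 11 higher, while 10 were lower with equal library totals. The partner subunit Tfdp1 was lower (371, 418 and 618 against 304, 339 and 271 normalized reads, log2 fold change -0.59, SE 0.253, adjusted p = 0.240) and Rbl2, the DREAM pocket protein p130, was higher (442, 418 and 479 against 565, 604 and 648, log2 fold change 0.44, SE 0.196, adjusted p = 0.254), but at -0.08 with equal library totals. The groups of neither gene overlapped. Genes of cell cycle arrest were lower in 9 of 13 (median -0.25). The INK4 inhibitor gene Cdkn2c had 98.5, 129.7 and 181 normalized reads in the vehicle livers against 19.9, 13.9 and 17.3 in the treated livers (log2 fold change -2.90, SE 0.401, adjusted p = 0.0668). Cdkn2a, which encodes p16 and p19Arf, had 14.2, 35.8 and 64.4 with vehicle and 0 reads in all 3 ginkgetin libraries, at least 10.9-fold lower when each treated library is set at 3 reads, a limit that allows for counting error alone (adjusted p = 0.0668, limma).

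**Figure D4:**
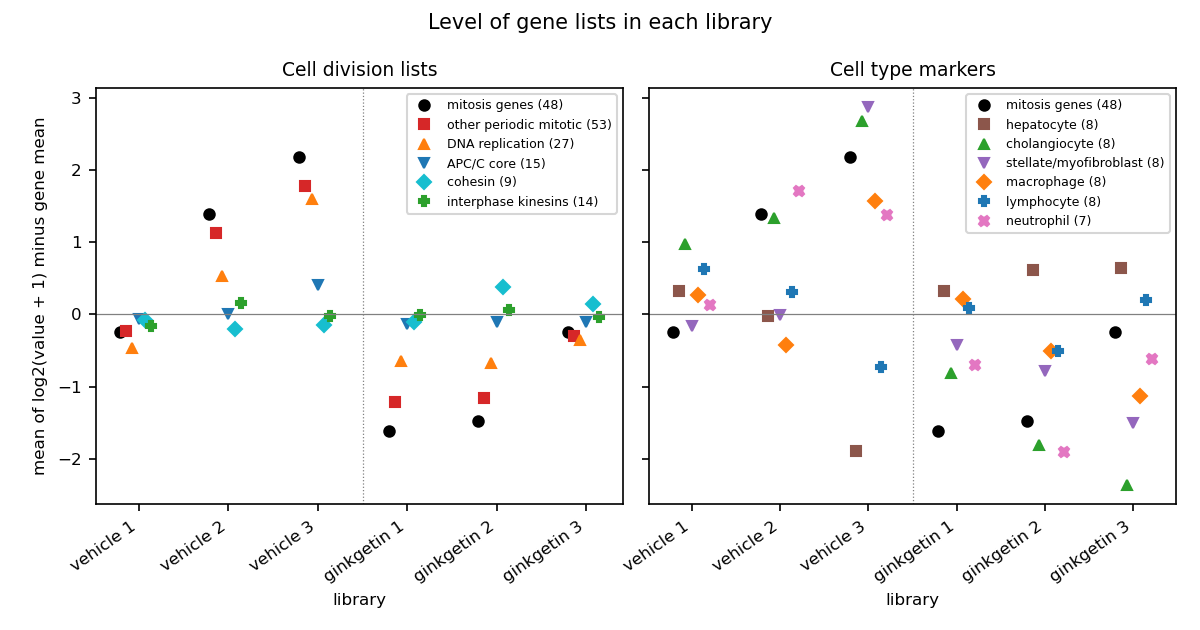
Each point is the mean over a gene list (number of genes in brackets) of log2(value + 1) minus the gene's 6-library mean, in 1 library, for cell division lists (left) and cell type markers (right). Mitosis genes run from -1.62 in ginkgetin 1 to 2.19 in vehicle 3, the plotted lists of the anaphase-promoting complex core, cohesin and interphase kinesins lie between -0.20 and 0.41, and the cholangiocyte, stellate cell and neutrophil lists are lower in every ginkgetin library than in every vehicle library.

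Cell type markers also differed between these livers, and their part in the mitosis result was not tested. In bulk tissue, fewer dividing cells and less of each RNA per dividing cell cannot be told apart. Hepatocyte markers were abundant in every library, as the labelled tissue requires, with albumin at 2.89% to 12.1% of reads, the lowest share in vehicle 3. The 8 hepatocyte markers lay at 0.33, -0.02 and -1.89 in vehicle replicates 1 to 3, on the centred log2 scale, and between 0.32 and 0.65 with ginkgetin. All 8 cholangiocyte markers had lower means (median -3.33), and their values summed to 2049, 2443 and 21056 normalized reads with vehicle and to 784, 395 and 319 with ginkgetin. Stellate cell and myofibroblast markers summed to 11311, 13281 and 122042 against 5396, 6278 and 3267, with 7 of 8 lower. No hepatocyte, cholangiocyte or stellate cell marker was at 0 in any library. Macrophage markers were lower in 5 of 8, neutrophil markers in 7 of 7, lymphocyte markers in 6 of 8, endothelial markers in 3 of 7 and red cell precursor markers in 5 of 7. Macrophage sums ran from 4873 to 37949 with vehicle and from 4258 to 9173 with ginkgetin, and neutrophil sums from 440.1 to 1381 and from 59.0 to 283.

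The order of the libraries was not the same for mitosis genes as for cholangiocyte and stellate cell markers. Vehicle 2 had 2.64 times the summed normalized reads of mitosis genes that vehicle 1 had. The ratio was 1.19 for cholangiocyte and 1.17 for stellate cell markers, sums in which the most abundant markers weigh most. Mean centred log2 levels rose from vehicle 1 to 3 in each of these lists. They were -0.24, 1.40 and 2.19 for mitosis genes, 0.98, 1.34 and 2.68 for cholangiocyte markers and -0.16, -0.002 and 2.88 for stellate cell markers. Ginkgetin 3 had the highest sum of mitosis genes among the ginkgetin libraries, at 1074, 944 and 2191 in replicates 1 to 3, and the lowest sum of both marker lists. Vehicle 3 was highest in all 3. For neutrophil markers the ratio of vehicle 2 to vehicle 1 was 1.07, while their mean centred log2 levels in vehicle 1 to 3 were 0.13, 1.71 and 1.38, with vehicle 2 highest. Without vehicle 3 the mitosis genes had lower means in 47 of 48 (median -1.85, 0 past the adjusted threshold), Anln being the exception (0.21). Without it cholangiocyte markers were lower in 8 of 8 (median -3.06, 4 past the threshold in limma), stellate cell markers in 6 of 8 (-1.27, 2 past it) and neutrophil markers in 7 of 7 (-1.65, 0 past it). Of all 14639 genes, 51% had lower means in this setting and 67 passed the threshold as lower.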

How the data were processed

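The deposited table holds normalized read counts (a signal per gene and library) that the authors computed; per the submitters' processing notes reads were mapped to mRatBN7.2, and no aligner, counter, annotation or strand setting is named there. Values are whole multiples of 1 step per library, so reads were recovered within 0.02 of a whole number for 99.67% of genes. These gave 13372367 to 14933853 reads per library. Reads are not known to be deduplicated, and overlapping or near-identical genes may share them.

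Genes reaching 1 in 3 or more of the 6 libraries were tested with limma 3.58.1 (R 4.3.3; mean-variance trend, robust) on log2(value + 1), Benjamini-Hochberg threshold 0.05, without covariates. An exact permutation test of 3 against 3 cannot go below p = 0.1, and none was used. edgeR 4.0.16 and DESeq2 1.42.0 on recovered reads, pseudocounts of 0.5 and 5, no filter or a minimum of 10, quantile scaling, equal totals, array weights, a replicate block and leaving out each library were alternatives. The limma script was tested on simulated data.

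Members and lists were chosen with earlier results of these data known. Values in every library are given for Mki67, Top2a, Cdk1, Foxm1, the up to 3 members of each class with the smallest p and the 3 with the largest. Of the other lists the 2 with the smallest p are named. Values of Aurka in every library, and Cks1b, Hjurp and Smc3, were added after their values were seen. The labels do not say that same-numbered libraries are paired, so no pairing was used.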

Additional observations from a re-analysis of the deposited data

How the results depend on the processing

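Adjusted calls among the 48 members depended on the test and on vehicle 1: 0 in limma, 0 in edgeR, 32 in DESeq2 and 29 with array weights, and 0 to 25 with 1 library left out, the 25 without vehicle 1. Over all genes DESeq2 called 1375, array weights 2500 and limma 2. Members without overlap numbered 25 (background 16.1%), but 14 with quantile scaling (12.8%). With 1 library left out they numbered 25 to 47, the 47 without vehicle 1 (25.2%). Members lower at an unadjusted p numbered 40 (background 13.2%), 30 with quantile scaling, and 25 to 44 with 1 library left out. Of all 14639 genes, 2514 reached that p in either direction with quantile scaling, and 1745 to 4123 with 1 library left out. The cause of these moves was not tested. The median ranged from -2.98 to -1.85 with 1 library left out. Of the 32 members given by library under the naming rule, Aurka not counted, 2 changed direction, Anln and Cks2. Anln ranged from -1.65 to 0.21 with 1 library left out. It was at 0.21 with quantile scaling, 0.13 without vehicle 2 and 0.21 without vehicle 3. Cks2 ranged from -0.82 to 0.10, the latter without ginkgetin 2. Aurka ranged from -1.24 to -0.49 with 1 library left out. The labels do not say whether replicate numbers pair the libraries. Deviations of same-numbered libraries from their group means correlated at -0.16, 0.03 and -0.21. Such deviations sum to 0 within each small group, so these values cannot show whether samples were paired. With a replicate block, 0 members passed, 40 were lower at an unadjusted p and the median was -2.24. There 2382 of all 14639 genes reached that p in either direction. Among genes of the other lists that the text names, Rbl2 (-0.08), Stag2 (-0.09), Pds5a (-0.01), Cks1b (-0.47) and Hjurp (-0.44) turned lower with equal totals. With 1 library left out Cks1b ranged from -0.19 to 0.32 and Hjurp from -0.46 to 0.61, and Smc3 was at 0.02 without vehicle 3. Anln, Racgap1 and Melk rest on few reads.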
